A study of Gallus gallus with 24 samples.

Results

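The chicken hearts of this series, 6 from Sal-exposed and 6 from control birds, were compared gene by gene. They were chosen by the tissue and treatment in the sample labels and make up 12 of the 24 libraries analysed here, the other 12 being livers of the same 2 treatments. Sal is salinomycin, a polyether ionophore that is fed to poultry against coccidia. Every bird, exposed or control, ate Sal-free feed before the experimental weeks. In weeks 4 and 5 the exposed birds ate feed with 10.5 mg/kg Sal, which comes to about 0.9 mg per kg of bird a day, and the control birds stayed on feed without Sal. According to the methods the birds were female broilers kept 10 to a pen and sampled in week 5; no allele or further agent was named for either group, and the labels do not say which pen a bird came from. Each library is named below by its group and the number in its label. Because nothing ties the numbers to separate pens, p-values measure the spread between these libraries.

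The hearts had 32.2 to 44.5 M counts on genes in the Sal-exposed group (median 33.9 M) and 33.1 to 42.3 M in the control group (median 37.6 M). Cardiac muscle genes were abundant in all 12 libraries, with troponin T (*TNNT2*) between 2610 and 5957 counts per M (CPM). Here CPM are counts per M of a library total scaled by the trimmed mean of M values (TMM). They are therefore not shares of the library. Counts on the mitochondrial genome took 40.7% to 79.6% of a Sal-exposed library and 38.6% to 47.9% of a control library, and Sal-exposed hearts 1 (72.0%) and 4 (79.6%) lay above all others. Sal-exposed heart 3 went against the description of the birds as female. Its transcripts from 77 genes of the W chromosome, which only hens carry, summed to 105 CPM, against 921 to 1226 CPM in the other 11 hearts, and *ATP5A1W* was at 4.84 CPM against 318 to 538 CPM. Its Z-linked genes had a median log2 ratio of 0.36 to the other hearts, where those 11 lay between −0.10 and 0.08. The liver labelled Sal-exposed 3 showed the same, with *ATP5A1W* at 0.929 CPM against 113 to 255 CPM in the other 11 livers. These W-linked and Z-linked measures were chosen after their values were seen. Results below are therefore also given without Sal-exposed heart 3.

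**Figure D1:**
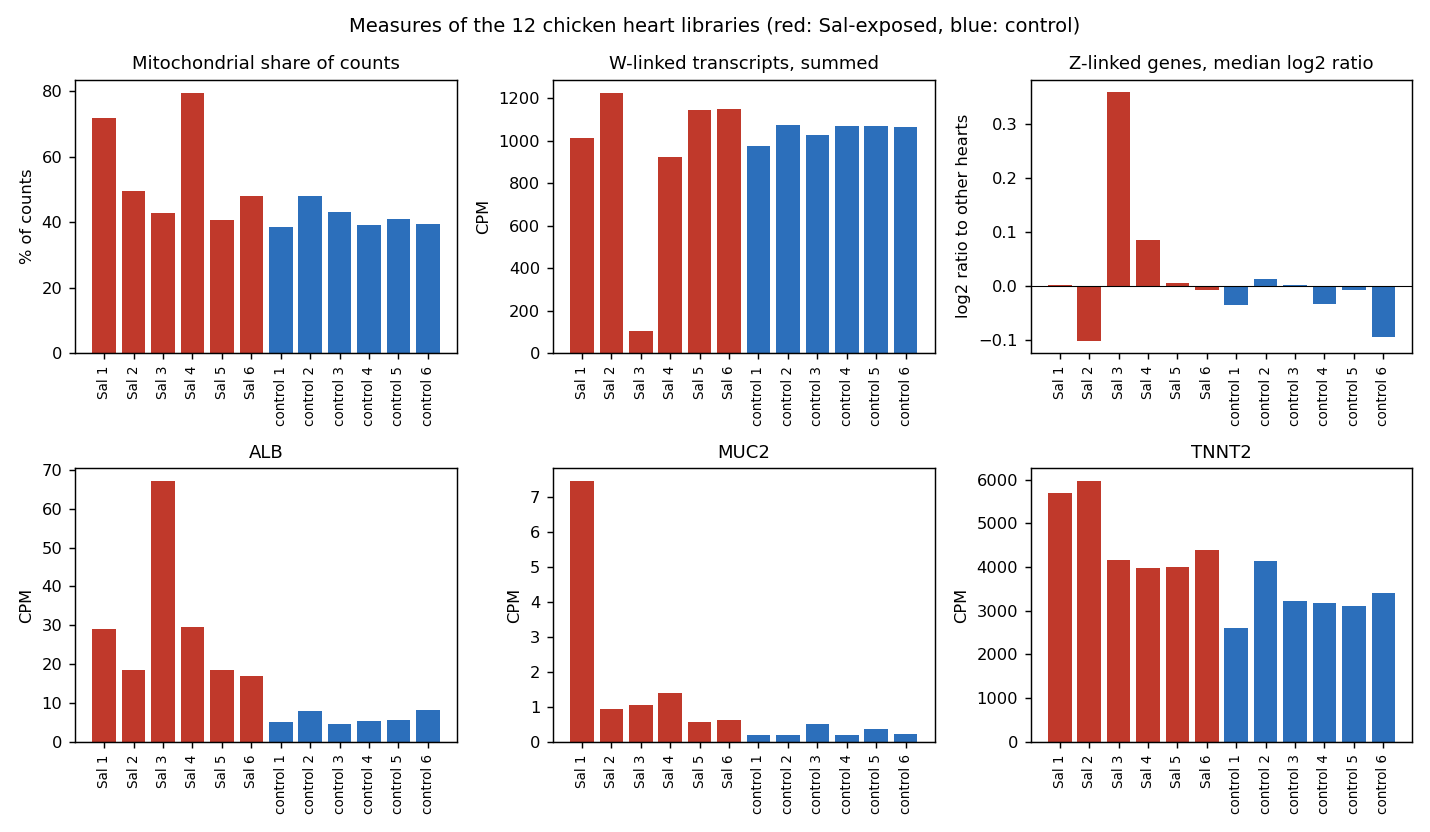
Measures of each of the 12 heart libraries in 6 panels, a bar per library, red for Sal-exposed and blue for control: mitochondrial share in % of counts, summed W-linked CPM, median log2 ratio of Z-linked genes, and CPM of *ALB*, *MUC2* and *TNNT2*. Sal-exposed heart 3 stands alone at 105 CPM of W-linked transcripts and has the highest *ALB* (67.1 CPM), Sal-exposed hearts 1 and 4 have the highest mitochondrial shares, and Sal-exposed heart 1 has the highest *MUC2* (7.44 CPM).

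Ionophores of this kind carry sodium and other monovalent cations across membranes. Heart muscle keeps a steep sodium gradient through the sodium pump, uses that gradient to move calcium out, and meets its energy demand largely from mitochondria. Cyclic AMP signalling sets the force and rate of the beat, and chaperones of the endoplasmic reticulum (ER) fold its membrane and secreted proteins. The comparison of exposed with control hearts asks which of these functions changed at the level of transcripts in a species that tolerates the compound.

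Few genes passed the test. Of 13526 genes tested with edgeR (quasi-likelihood, p adjusted after Benjamini and Hochberg), 25 (0.185%) had an adjusted p of at most 0.05; 19 of these rose (0.14%) and 6 fell (0.0444%). A log2 fold change (log2FC, Sal-exposed relative to control) of at least 1 in size was also reached by 15 (0.111%), of which 12 rose (0.0887%) and 3 fell (0.0222%). In all 25 the 6 Sal-exposed and 6 control libraries did not overlap, as in 353 of all genes tested (2.61%), and DESeq2 gave all 25 an adjusted p of at most 0.05, among 673 genes (4.59%; 490 higher, 3.34%, and 183 lower, 1.25%); 171 of these also had a log2FC of at least 1 in size (1.17%). An unadjusted p below 0.05 was found for 2332 genes (17.2%), with 1372 higher (10.1%) and 960 lower (7.1%), and the median log2FC of all genes was −0.02. The calls rested on every control heart: without any 1 of the 6 control hearts no gene passed by edgeR, with the smallest adjusted p between 0.0566 and 0.0834 and 1904 to 2199 genes at an unadjusted p below 0.05. Without Sal-exposed heart 1 only 3 of the 25 remained (*UGP2* and the unnamed genes *ENSGALG00010017812* and *ENSGALG00010017207*), without heart 6 of that group 12 remained among 18 genes, and without heart 2 20 among 25. Without Sal-exposed hearts 3, 4 or 5 more genes passed: 270, 59 and 44, with 25, 25 and 23 of the 25 among them. The direction of all 25 was the same in each of the 12 fits that left out 1 heart. With the mitochondrial share as a covariate none of the 25 passed, and all 25 kept their direction: the log2FC was 2.35 for *ALB* (edgeR adjusted p = 0.0582), 0.86 for *BAG2* (edgeR adjusted p = 0.0699) and 1.08 for *PDE4B* (edgeR adjusted p = 0.0714), near the values given below, and 2.14 for *GUCA2B* (edgeR adjusted p = 0.12), which was 3.42 without the covariate. With surrogate variables in edgeR 15 of the 25 passed, and *AHSG*, *APOH*, *CSNK1E*, *GUCA2B*, *HSP90B1*, *MCOLN1*, *NFATC1*, *PDIA6*, *PLXNA4* and *UGT1A1* did not.

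**Figure D2:**
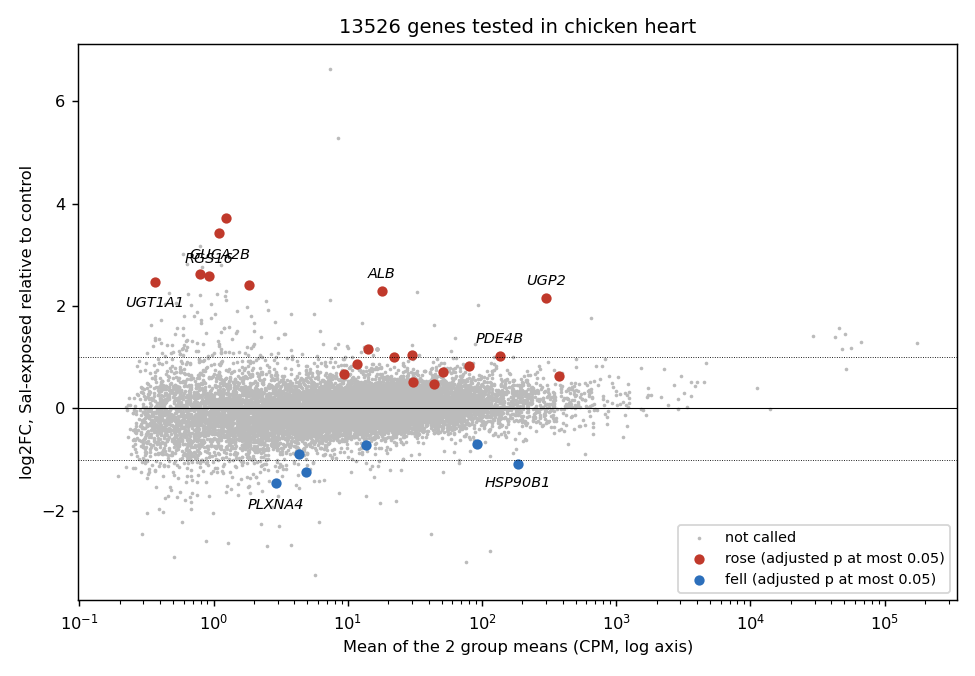
Log2FC of Sal-exposed relative to control hearts against mean expression (CPM, log axis) for the 13526 genes tested, one point per gene, with red for the 19 that rose, blue for the 6 that fell and dotted lines at a log2FC of 1 and −1. Most called genes with a log2FC above 2 lie at low expression, apart from *ALB* and *UGP2*.

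*PDE4B* (chromosome 8, 28104071 to 28211200 on GRCg7b, as are all positions given here), a phosphodiesterase that breaks down cyclic AMP, had 121, 189 and 234 CPM (lowest, median and highest) in Sal-exposed and 57.3, 91.2 and 111 CPM in control hearts. All Sal-exposed values lay above all control values, and the log2FC was 1.02 ± 0.18 (SE, edgeR adjusted p = 0.037). *AKAP10*, which anchors protein kinase A to membranes, had 50.7, 60.7 and 85.8 CPM against 33.8, 38.9 and 43.1 CPM, also without overlap (log2FC 0.72 ± 0.12, edgeR adjusted p = 0.037). *RGS16*, which speeds up the shut-off of G alpha (i) and (q) proteins, was low in both groups, with 0.530, 1.54 and 3.01 CPM against 0.0711, 0.256 and 0.460 CPM. Its log2FC of 2.59 ± 0.45 was among the highest of the called genes (edgeR adjusted p = 0.037). Of 52 tested genes of adrenergic and cyclic AMP signalling, *PDE4B* and *AKAP10* rose and none fell, beside 0.14% and 0.0444% of all genes. The gene lists here and below were chosen with earlier results of these data known, so their shares are descriptive and not a test. At an unadjusted p below 0.05, 9 were higher (17.3%) and 3 lower (5.77%), beside 10.1% and 7.1% of all genes. The median log2FC was 0.12, or 0.06 without Sal-exposed heart 1. *AKAP6*, the anchor of protein kinase A at the nuclear envelope and sarcoplasmic reticulum, was lower without overlap (7.93 to 17.6 against 18.2 to 19.8 CPM) but did not pass (log2FC −0.59 ± 0.18, edgeR adjusted p = 0.137). Among 16 RGS genes only *RGS16* passed; the neighbouring *RGS8* had a log2FC of 1.47 ± 0.40 (edgeR adjusted p = 0.109).

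*MAPKAPK2*, a kinase downstream of p38, had 378, 451 and 517 CPM in Sal-exposed and 276, 289 and 311 CPM in control hearts (log2FC 0.63 ± 0.11, edgeR adjusted p = 0.037). *IRS1*, the adaptor of the insulin receptor, had 10.7, 11.4 and 12.6 CPM against 6.37, 7.23 and 8.08 CPM (log2FC 0.68 ± 0.10, edgeR adjusted p = 0.0292). In both genes every exposed heart was above every control heart. *NFATC1*, a transcription factor that calcineurin activates, had 26.5, 37.1 and 66.5 CPM against 17.5, 19.3 and 21.9 CPM (log2FC 1.05 ± 0.19, edgeR adjusted p = 0.0487). *ZFPM1*, a cofactor of GATA factors, had 84.7, 91.4 and 132 CPM against 54.6, 57.6 and 62.7 CPM (log2FC 0.82 ± 0.13, edgeR adjusted p = 0.0292), and its partner *GATA4* had a log2FC of 0.42 ± 0.12 that did not pass (edgeR adjusted p = 0.125). *KLF9*, a transcription factor induced by glucocorticoids in mammals, had 19.7, 29.6 and 36.4 CPM against 9.88, 14.3 and 19.1 CPM (log2FC 1.01 ± 0.19, edgeR adjusted p = 0.0487). It is Z-linked, and without Sal-exposed heart 3 its log2FC was 1.02 (edgeR adjusted p = 0.0385). *CSNK1E*, the casein kinase that phosphorylates the PER clock proteins, also rose (log2FC 0.52 ± 0.10, edgeR adjusted p = 0.0487). It was the one called gene among 19 of the circadian clock, where 0.14% of all genes rose.

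Among protein folding genes, *HSP90B1* and *PDIA6* of the ER fell and the cochaperone *BAG2* rose. *HSP90B1* (chromosome 1, 54757804 to 54769805), the HSP90 of the ER, had 63.0, 114 and 170 CPM in Sal-exposed and 217, 240 and 333 CPM in control hearts, so that every exposed heart was below every control heart. It fell by 1.09 on the log2 scale (SE 0.20, edgeR adjusted p = 0.0487). *PDIA6*, an ER protein disulphide isomerase, had 61.4, 69.5 and 79.7 CPM against 97.0, 110 and 141 CPM and fell by 0.69 (SE 0.12, edgeR adjusted p = 0.037). Of 36 tested genes of ER chaperones and the unfolded protein response these 2 fell and none rose, beside 0.0444% and 0.14% of all genes. Below all controls lay 5 and above them none (0.969% and 1.64% of all genes). A negative log2FC was found for 28 of the 36, beside 52.2% of all genes, and the median was −0.18. *HSPA5*, the ER HSP70 that senses unfolded protein, had 114, 166 and 183 CPM against 211, 228 and 335 CPM, without overlap, and did not pass (log2FC −0.63 ± 0.15, edgeR adjusted p = 0.0814). The isomerase *PDIA4* had a log2FC of −0.43 ± 0.11 (edgeR adjusted p = 0.0997). Control heart 1 had the highest value of *HSP90B1*, *HSPA5* and *PDIA4*.

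Outside the ER, *BAG2*, a cochaperone of HSP70, rose from 6.64, 8.05 and 9.72 CPM in control to 12.9, 14.1 and 19.7 CPM in Sal-exposed hearts (log2FC 0.88 ± 0.13, edgeR adjusted p = 0.0292). Of 45 tested heat shock proteins and cochaperones it was the only one called, where 0.14% of all genes rose. This list also holds *HSPA5* of the ER, which had its lowest log2FC. At an unadjusted p below 0.05, 10 of them were higher (22.2%) and 2 lower (4.44%), beside 10.1% and 7.1% of all genes. The median was 0.12, or 0.03 without Sal-exposed heart 3. The heat shock factor *HSF2* was higher without overlap, with 29.6 to 38.9 CPM against 21.4 to 25.7 CPM, and did not pass (log2FC 0.51 ± 0.10, edgeR adjusted p = 0.062). *BAG3*, the cochaperone that guides damaged sarcomere proteins to autophagy, had a log2FC of 0.65 ± 0.15 (edgeR adjusted p = 0.0814), and control heart 1 was the highest of its group here too. *HSP90AA1*, the cytosolic HSP90, chosen after its values were seen, had a log2FC of −0.49 ± 0.20 (edgeR adjusted p = 0.22) with overlapping groups. In the integrated stress response, *ATF4*, its central transcription factor, had 304, 465 and 517 CPM against 200, 256 and 331 CPM, which overlap, and a log2FC of 0.75 ± 0.16 (edgeR adjusted p = 0.0741).

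The most abundant gene with a log2FC above 2 was *UGP2* (chromosome 3, 9739091 to 9762360), the enzyme that makes UDP-glucose for glycogen and glucuronide synthesis. It had 215, 283, 366, 408, 436 and 1212 CPM in the 6 Sal-exposed hearts and 79.7, 91.0, 101, 104, 136 and 146 CPM in the controls. Sal-exposed heart 1 held the 1212 CPM, and the other 5 still exceeded every control (log2FC 2.15 ± 0.36, edgeR adjusted p = 0.037). Without that heart the log2FC was 1.64, the lowest of the 12 fits that left out 1 heart. *GBE1*, the glycogen branching enzyme, was lower without overlap (8.41 to 15.8 against 16.1 to 24.1 CPM) and did not pass (log2FC −0.67 ± 0.15, edgeR adjusted p = 0.0814). *UGT1A1*, which in mammals conjugates bilirubin and drugs with the glucuronic acid made from UDP-glucose, was low in both groups, with 0.357, 0.563 and 1.11 CPM against 0.0668, 0.0874 and 0.174 CPM (log2FC 2.47 ± 0.40, edgeR adjusted p = 0.0292). Every control heart was below the filter on low counts (0.284 CPM), so *UGT1A1* entered the test only through the Sal-exposed hearts. It belongs to a locus whose copies share sequence, so reads of related transcripts may be counted in it. Among 51 tested detoxification enzymes it was the only one called, where 0.14% of all genes rose. *MCOLN1*, a cation channel of lysosomes, rose with small spread, from 33.8, 37.0 and 40.3 to 47.3, 50.5 and 59.1 CPM (log2FC 0.48 ± 0.09, edgeR adjusted p = 0.0487). Of 43 genes of autophagy and mitophagy none passed. At an unadjusted p below 0.05, 12 of the 43 were higher (27.9%) and 2 lower (4.65%), beside 10.1% and 7.1% of all genes. *ATG3*, the conjugating enzyme of LC3, was the first of these (22.9 to 41.2 against 19.2 to 22.4 CPM, log2FC 0.54 ± 0.13, edgeR adjusted p = 0.0863).

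Beside the 2 ER genes, 4 genes fell. *PLXNA4* (chromosome 1, 2830528 to 3278055), a semaphorin receptor, had 1.11, 1.56 and 2.17 CPM in Sal-exposed and 2.65, 4.23 and 5.66 CPM in control hearts, and fell by 1.46 (SE 0.24, edgeR adjusted p = 0.0292). It was the only called gene of 51 guidance receptors and ligands, where 0.0444% of all genes fell. In that list *SEMA3F* had a log2FC of 0.86 ± 0.23 in the other direction (edgeR adjusted p = 0.102). *ARHGAP28*, a GTPase-activating protein, had 1.77, 3.13 and 3.93 CPM against 5.05, 6.74 and 8.92 CPM and fell by 1.23 (SE 0.21, edgeR adjusted p = 0.037). *CHTF18*, a subunit of a clamp loader in DNA replication, had 8.86, 10.1 and 12.4 CPM against 15.5, 17.3 and 18.8 CPM and fell by 0.71 (SE 0.11, edgeR adjusted p = 0.0292). *FAM83H*, which in mammals organises keratin filaments, had 2.46, 3.15 and 3.33 CPM against 4.84, 5.56 and 6.77 CPM and fell by 0.90 (SE 0.14, edgeR adjusted p = 0.0292). All 4 were without overlap between the groups. Further genes with large negative log2FC and no overlap did not pass: *PROM1* (−1.25), *CYR61* (−1.23), *SQLE* of cholesterol synthesis (−1.18) and the lipid droplet protein *PNPLA3* (−1.11). For *CYR61*, a matrix protein induced by stretch in mammals, the values were 22.9, 33.4 and 34.9 CPM against 37.3, 63.2 and 142 CPM (edgeR adjusted p = 0.0723), and the 142 CPM was control heart 1.

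**Figure D3:**
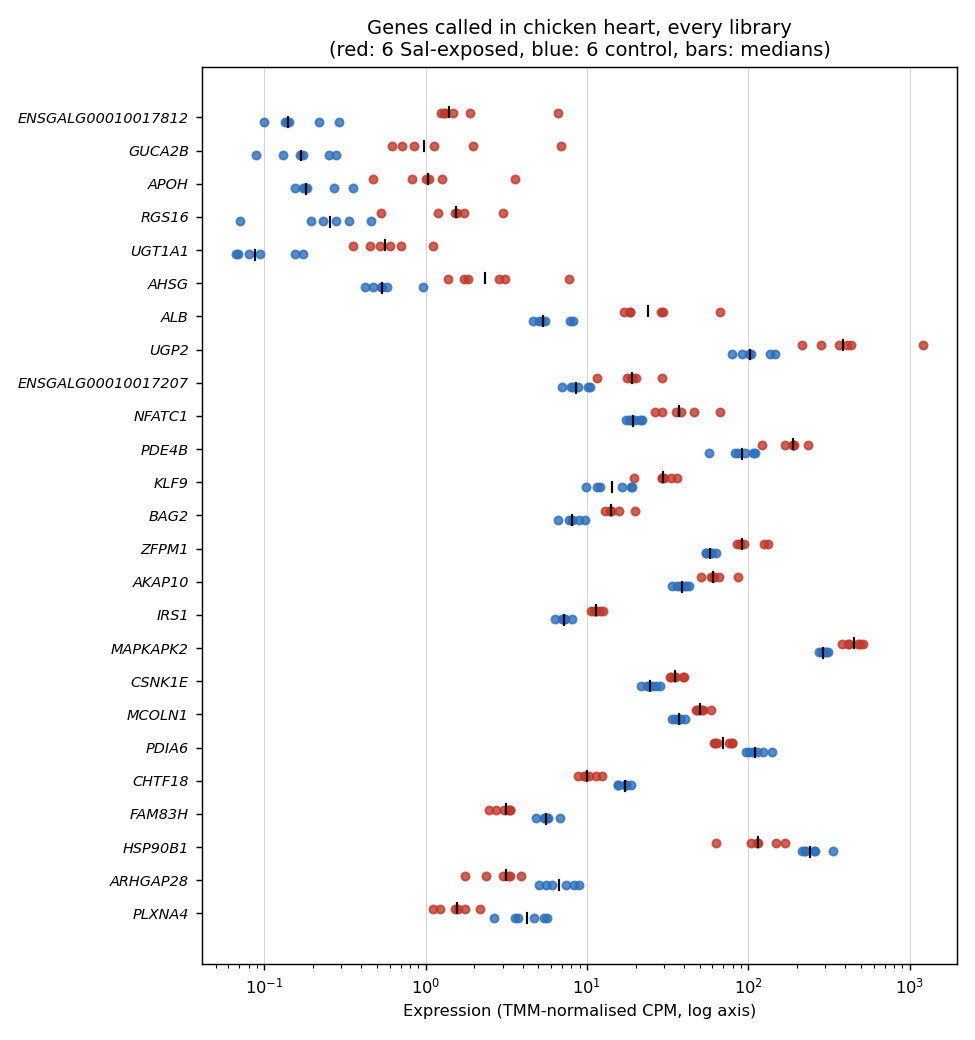
Expression of the 25 called genes in every heart library (TMM-normalised CPM, log axis), red for 6 Sal-exposed and blue for 6 control hearts, with a black bar at each group's median and genes ordered by log2FC. In each gene the red and blue points do not overlap, and single high red points in *ENSGALG00010017812*, *GUCA2B* and *UGP2* are Sal-exposed heart 1, those in *ALB*, *AHSG* and *APOH* Sal-exposed heart 3.

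A separate group of called genes is typical of liver or gut epithelium rather than of heart. *ALB* (chromosome 4, 50337890 to 50357184), serum albumin, had 16.9, 18.4, 18.6, 28.9, 29.6 and 67.1 CPM in the Sal-exposed hearts and 4.60 to 8.16 CPM (median 5.38) in the controls, with the highest in Sal-exposed heart 3 (log2FC 2.30 ± 0.33, edgeR adjusted p = 0.0292). *AHSG* (fetuin-A) had 1.37, 2.34 and 7.76 CPM against 0.423, 0.535 and 0.957 CPM (log2FC 2.41 ± 0.42, edgeR adjusted p = 0.037). *APOH*, a phospholipid-binding plasma protein, had 0.473, 1.03 and 3.59 CPM against 0.156, 0.182 and 0.355 CPM (log2FC 2.63 ± 0.47, edgeR adjusted p = 0.0468). Without Sal-exposed heart 3 the log2FC were 1.89, 1.88 and 2.04 and all 3 still passed. Of 22 tested hepatocyte markers these 3 rose, beside 0.14% of all genes, and 8 lay above all controls, beside 1.64%. At an unadjusted p below 0.05, 15 were higher and 2 lower, beside 10.1% and 7.1% of all genes, and the median was 1.29. Without Sal-exposed heart 3, 4 of 21 rose, 11 were higher and 2 lower, and the median was 0.91. Of the list 27 had counts, and 1 of the 22 passed the filter on low counts with every control heart below 0.284 CPM. The filter's limit has this value too, but on totals not scaled by TMM. Fibrinogen beta (*FGB*) was among the markers above all controls (1.81 to 5.90 against 0.468 to 1.54 CPM, log2FC 1.80 ± 0.39, edgeR adjusted p = 0.0731). The sum over the whole marker list was 318 to 544 CPM in Sal-exposed and 266 to 796 CPM in control hearts, so the summed level did not follow the group. Most of this sum came from members other than *ALB*, which had at most 67.1 CPM. The plasma proteins that the study listed for heart summed to 23.5 to 94.7 CPM in Sal-exposed and 7.19 to 12.1 CPM in control hearts. No marker of the list was at 0 in all hearts. Genes of plasma proteins that the study had itself listed for chicken heart overlap this list, and are not independent evidence of its direction. In these bulk samples more cells of a type and more RNA per cell cannot be told apart.

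*GUCA2B* (chromosome 21, 5826678 to 5832750), the gut peptide uroguanylin, had 0.623, 0.982 and 6.91 CPM in Sal-exposed and 0.0891, 0.170 and 0.280 CPM in control hearts (log2FC 3.42 ± 0.63, edgeR adjusted p = 0.0487). *ENSGALG00010017812* (chromosome 9, 12832397 to 12861901) had 1.25, 1.39 and 6.65 CPM against 0.10, 0.140 and 0.290 CPM, the highest log2FC of the called genes (3.71 ± 0.51, edgeR adjusted p = 0.0292). It carries no symbol in the files, and overlaps over 28953 bases the interval that RefSeq gives on the same build to *FCGBP*, a mucus protein in mammals. *MUC2*, the gel-forming mucin of the gut, was higher without overlap (0.573, 0.985 and 7.44 against 0.190, 0.210 and 0.506 CPM) and did not pass (log2FC 2.79 ± 0.65, edgeR adjusted p = 0.0814), and *FABP6*, an ileal bile acid binding protein, had a log2FC of 1.85 ± 0.45 (edgeR adjusted p = 0.0866). In all 4 the highest library was Sal-exposed heart 1, and without it the log2FC were 2.48, 3.05, 1.67 and 1.21, of which only *ENSGALG00010017812* passed. Of 18 intestinal markers with counts, 9 passed the filter on low counts and 1 rose, beside 0.14% of all genes. All 9 had a positive log2FC, beside 47.8% of all genes, and 3 lay above all controls, beside 1.64%. At an unadjusted p below 0.05, 5 of the 9 were higher and none lower, beside 10.1% and 7.1% of all genes. The median was 1.03, or 0.69 without Sal-exposed heart 3. The highest control heart had 0.280 CPM of *GUCA2B*, close to the filter's 0.284 CPM, which is set on totals not scaled by TMM. The summed list was 66.6 to 151 CPM in Sal-exposed and 80.4 to 99.7 CPM in control hearts. The intestinal markers *FABP2* and *CDX2*, below the count filter, went the same way. *FABP2* had 12 to 18 counts per Sal-exposed heart and 2 to 4 per control heart. *CDX2* had 22 of its 28 counts in Sal-exposed heart 1. *SLC5A12*, a marker of the kidney list and also below the filter, had 48 counts over the Sal-exposed and 0 over the control hearts. These 3 genes were chosen after their values were seen. Of 5 tested kidney markers none had a positive log2FC, beside 47.8% of all genes. The part that RNA of another tissue has in these results was not tested.

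*ENSGALG00010017207* (chromosome 14, 15205168 to 15207698), the other called gene with no symbol, had 11.6, 18.96 and 29.2 CPM against 6.98, 8.497 and 10.4 CPM (log2FC 1.15 ± 0.19, edgeR adjusted p = 0.0292). All 2531 bases of it lie inside the RefSeq interval of the integrin gene *ITGAD*. It was called without either of Sal-exposed hearts 1 and 3.

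No gene of the contractile apparatus passed. At an unadjusted p below 0.05, 8 of 35 were higher (22.9%) and 1 lower (2.86%), beside 10.1% and 7.1% of all genes. The median log2FC was 0.20, or 0.05 without Sal-exposed heart 4. *LDB3*, a Z-disc protein, had 355, 398 and 482 CPM against 263, 297 and 314 CPM, without overlap (log2FC 0.47 ± 0.11, edgeR adjusted p = 0.0811). *TNNC1*, cardiac troponin C, had 2695, 3488 and 5030 CPM against 1884, 2474 and 2541 CPM, also without overlap (log2FC 0.64 ± 0.18, edgeR adjusted p = 0.122), with the 1884 CPM in control heart 1. *TNNT2* had 3976, 4265 and 5957 CPM against 2610, 3199 and 4131 CPM, which overlap (log2FC 0.52 ± 0.17, edgeR adjusted p = 0.145). The natriuretic peptide *NPPA*, a marker of cardiac strain, had 2959, 5394 and 7249 CPM against 2374, 3589 and 5496 CPM, a difference within the spread of the groups (log2FC 0.51 ± 0.27, edgeR adjusted p = 0.348). The summed cardiomyocyte markers were 31926 to 46127 CPM in Sal-exposed and 26173 to 34438 CPM in control hearts.

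No gene passed in the lists of sodium, calcium and potassium channels, pumps and exchangers. Of 18 voltage-gated sodium and calcium channel subunits 4 were lower (22.2%) and none higher at an unadjusted p below 0.05. Of all genes 7.1% were lower and 10.1% higher. The median of these subunits was −0.21, or −0.39 without Sal-exposed heart 3. *CACNG4*, an auxiliary subunit of calcium channels, was barely detected, with 0 to 0.265 CPM in Sal-exposed and 0.368 to 1.56 CPM in control hearts (log2FC −2.90 ± 0.61, edgeR adjusted p = 0.0723). *SCN8A* had 0.351, 0.498 and 0.747 CPM against 0.774, 1.05 and 1.46 CPM (log2FC −1.01 ± 0.29, edgeR adjusted p = 0.118) and the sodium channel beta subunit *SCN3B* a log2FC of −0.78 ± 0.24 (edgeR adjusted p = 0.131). Of 22 sodium pump subunits and cation exchangers 1 was higher (4.55%) and 2 lower (9.09%). The potassium-chloride cotransporter *SLC12A7* lay below all controls (3.18 to 5.33 against 6.04 to 7.24 CPM, log2FC −0.62 ± 0.15, edgeR adjusted p = 0.0869). Of 44 potassium channel genes 8 were higher (18.2%) and 2 lower (4.55%), *KCNN1* among the higher (log2FC 0.53 ± 0.15, edgeR adjusted p = 0.112). The 38 genes of calcium release and reuptake were balanced, with 4 higher (10.5%) and 3 lower (7.89%), near the shares of all genes. Among them the calcium pump *ATP2A3* had a log2FC of −0.56 ± 0.15 (edgeR adjusted p = 0.102) and the calsequestrin *CASQ2* one of 0.36 ± 0.11 (edgeR adjusted p = 0.145). The medians of the potassium channels (0.03) and of calcium release and reuptake (0.01) changed sign under upper-quartile scaling (−0.01 and −0.03). Both also did so without Sal-exposed heart 4 (−0.07 and −0.09) and without Sal-exposed heart 2 (−0.01 and −0.02). The potassium channel median was also negative without control heart 4 (−0.04) or 5 (−0.02).

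Transcripts of the 13 proteins encoded in mitochondrial DNA had log2FC from 0.03 to 1.77 with a median of 1.28, or 0.79 without Sal-exposed heart 4, and none passed. At an unadjusted p below 0.05, 10 of the 13 were higher (76.9%) and none lower, beside 10.1% and 7.1% of all genes. *ATP8* had 303, 553 and 2597 CPM in Sal-exposed and 214, 282 and 408 CPM in control hearts (log2FC 1.77 ± 0.47, edgeR adjusted p = 0.104), *COX2* 38401, 71585 and 207511 CPM against 32640, 37767 and 46933 CPM (log2FC 1.30 ± 0.38, edgeR adjusted p = 0.125), and *ND1* 23018, 41929 and 138054 CPM against 19197, 22546 and 29039 CPM (log2FC 1.40 ± 0.41, edgeR adjusted p = 0.126). The groups overlapped in all 13, and Sal-exposed heart 4 held the highest value of these 3. Nuclear genes of energy metabolism differed less. Of 38 nuclear subunits and assembly factors of complex I 10 were higher (26.3%) and none lower at an unadjusted p below 0.05 (median 0.22, or 0.11 without Sal-exposed heart 2). Of 29 tricarboxylic acid cycle genes 8 were higher (27.6%) and none lower (median 0.16). The shares of all genes were 10.1% and 7.1%. Other energy lists lay nearer to these shares. Higher were 3 of 21 nuclear genes of complexes II to IV, 1 of 16 of ATP synthase and 1 of 21 of glycolysis, with none lower. Of 33 fatty acid oxidation genes 1 was higher and 1 lower. *NDUFA4* had 440, 575 and 1174 CPM against 318, 332 and 368 CPM, without overlap (log2FC 0.97 ± 0.22, edgeR adjusted p = 0.077), and *NDUFA12* 153, 187 and 291 CPM against 106, 126 and 139 CPM (log2FC 0.67 ± 0.16, edgeR adjusted p = 0.0814). *PDK2*, the kinase that shuts off pyruvate dehydrogenase, had a log2FC of 0.64 ± 0.16 (edgeR adjusted p = 0.0869). The regulators of mitochondrial and fat metabolism, the coactivator *PPARGC1A* (log2FC 0.59 ± 0.15, edgeR adjusted p = 0.0916) and the receptor *PPARA* (log2FC 1.22 ± 0.31, edgeR adjusted p = 0.0917), were higher on average with overlapping groups. The oxygen sensor *EGLN1* lay above all controls (172 to 237 against 130 to 151 CPM, log2FC 0.56 ± 0.11, edgeR adjusted p = 0.0598), while its relative *EGLN3* had a log2FC of −0.90 ± 0.19 (edgeR adjusted p = 0.0723).

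In genes of protein synthesis Sal-exposed heart 2 stood above the rest. Its cytosolic ribosomal proteins summed to 32196 CPM, against 12863 to 16121 CPM in the other 11 hearts, its mitochondrial ribosomal proteins to 3548 CPM against 1807 to 2600 CPM, and its initiation factors to 6246 CPM against 4155 to 5056 CPM. Beside shares of 10.1% higher and 7.1% lower among all genes, 19 of 69 mitochondrial ribosomal proteins were higher and none lower at an unadjusted p below 0.05 (median 0.21, or 0.08 without that heart), and of 47 translation initiation factors 16 were higher and none lower (median 0.22, or 0.15 without it). None passed; *EIF2B3* (a median of 18.7 against 14.3 CPM without overlap, log2FC 0.44 ± 0.11, edgeR adjusted p = 0.0917) and *MRPL19* (log2FC 0.44 ± 0.11, edgeR adjusted p = 0.0989) had the lowest p of their lists. Of 69 cytosolic ribosomal proteins 9 were higher and 1 lower, with a median of 0.06, or −0.16 without it. Of 26 collagens none was higher and 5 were lower, with a median of −0.29. *COL1A2*, a chain of fibrillar collagen I, had 266, 338 and 421 CPM against 425, 483 and 791 CPM, without overlap (log2FC −0.70 ± 0.18, edgeR adjusted p = 0.0917), and *COL3A1* a log2FC of −0.56 ± 0.17 (edgeR adjusted p = 0.134). The summed fibroblast markers were 2717 to 3741 CPM in Sal-exposed and 3446 to 5217 CPM in control hearts. Of 37 cell division genes 1 was higher and none lower, at a median of −0.33 (−0.11 without control heart 6), and no interferon-stimulated gene of 28 had an unadjusted p below 0.05.

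**Figure D4:**
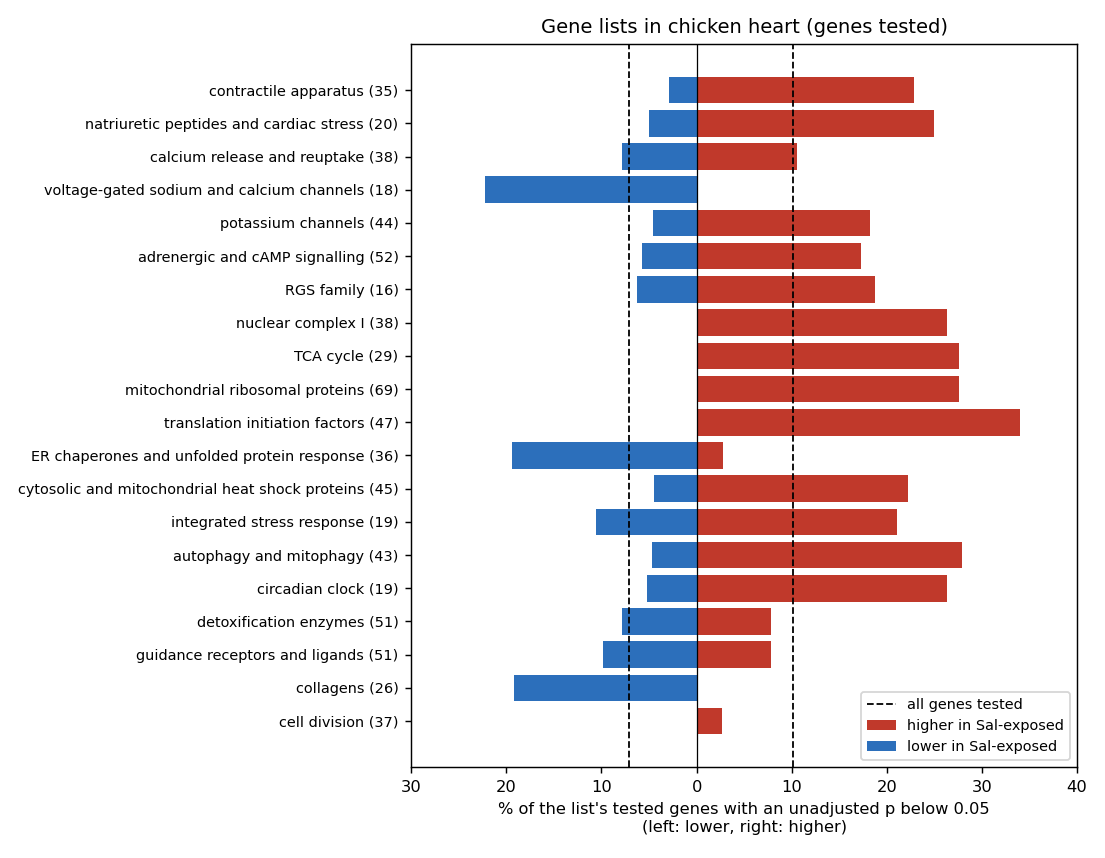
Share of each gene list with an unadjusted p below 0.05, in % of its tested genes (their number in parentheses), red to the right for higher and blue to the left for lower in Sal-exposed hearts, with dashed lines at the shares of all genes tested (10.1% and 7.1%). Translation initiation factors have 16 of 47 genes higher and none lower, and sodium and calcium channels, ER chaperones and collagens have more lower than higher genes.

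Leaving out Sal-exposed heart 3, the library with few W-linked transcripts, raised the number of called genes to 270 of 13591 (1.99%), with 195 that rose (1.43%) and 75 that fell (0.552%). They included all 25 genes above. From the lists, *HSPA5* fell (log2FC −0.66, edgeR adjusted p = 0.0488), making 3 ER chaperones that fell and none that rose, and *HSF2* (0.55) and *BAG3* (0.73) rose. *NDUFA4* (1.06), *NDUFA12* (0.72), *PPARGC1A* (0.65), *PPARA* (1.36), *EGLN1* (0.59), *ATF4* (0.82), *ATG3* (0.62) and *LDB3* (0.51) also rose in this fit, with edgeR adjusted p from 0.0385 to 0.0488. *CACNG4* (−3.36), *CYR61* (−1.25) and *ATP2A3* (−0.65) fell. *PPARA* had 11.6, 27.2 and 32.2 CPM in the remaining Sal-exposed hearts and 9.95 CPM in Sal-exposed heart 3, where the controls had 5.48 to 12.2 CPM. *SIRT1*, a deacetylase that activates PPARGC1A in mammals, had 49.3 to 75.9 CPM in those 5 hearts and 38.1 CPM in Sal-exposed heart 3, against 29.5 to 42.2 CPM in the controls (log2FC 0.71, edgeR adjusted p = 0.0385), and *PRKAG2*, a regulatory subunit of the energy sensor AMPK, 37.6 to 79.4 CPM and 38.3 CPM against 26.3 to 36.1 CPM (log2FC 0.88, edgeR adjusted p = 0.0385); both were chosen after their values were seen. Leaving out Sal-exposed hearts 1, 3 and 4 together, an alternative added after the data were seen, left 17 called genes, of which 9 were among the 25: *AKAP10*, *ALB*, *CHTF18*, *MAPKAPK2*, *RGS16*, *UGP2*, *ZFPM1* and the 2 unnamed genes.

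The liver, given the same feed, was compared through the difference between the 2 responses (heart minus liver, edgeR over all 24 libraries), which passed for 2373 of 14632 genes (16.2%). According to the methods both tissues came from the same 6 birds per group, and this fit has no term for the bird. Where the heart and liver of 1 treatment and number were taken as 1 bird, a fit with a term for each bird, added after the data were seen, called 2542 genes and again 10 of the 25. Of the 25 genes called in heart 10 passed, 9 with a higher log2FC in heart and 1 with a lower. The 25 were called on their change in heart, which enters this difference. Their share is therefore not comparable with that of all genes, and their directions largely follow those in heart. *ALB* had a log2FC of 2.30 in heart and −0.77 ± 0.34 in liver, where it did not pass (edgeR adjusted p = 0.136), and a difference of 3.00 ± 0.55 (edgeR adjusted p = 0.00132), and *APOH* fell in liver (−1.08 ± 0.27, edgeR adjusted p = 0.0185) while it rose in heart. *UGP2* had a log2FC of −0.52 ± 0.29 in liver (difference 2.61, edgeR adjusted p = 0.00132), *UGT1A1* one of 0.18 ± 0.31 (difference 2.21, edgeR adjusted p = 0.00396) and *MCOLN1* one of −0.57 ± 0.19 (difference 1.00, edgeR adjusted p = 0.00452). *ARHGAP28* had a log2FC of −0.01 ± 0.27 in liver (difference −1.30, edgeR adjusted p = 0.0126). For *PDE4B* the liver value was −0.34 ± 0.51 and the difference of 1.29 did not pass (edgeR adjusted p = 0.129), and for *HSP90B1* the liver value was −0.44 ± 0.24 (edgeR adjusted p of the difference 0.132). *KLF9* (0.90 ± 0.32), *CSNK1E* (0.60 ± 0.22) and *FAM83H* (−0.80 ± 0.20) had similar values in liver, where only *FAM83H* passed (edgeR adjusted p = 0.0181), and their differences between the tissues did not pass (edgeR adjusted p from 0.702 to 0.949). *RGS16* was below the count filter in liver alone.

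**Figure D5:**
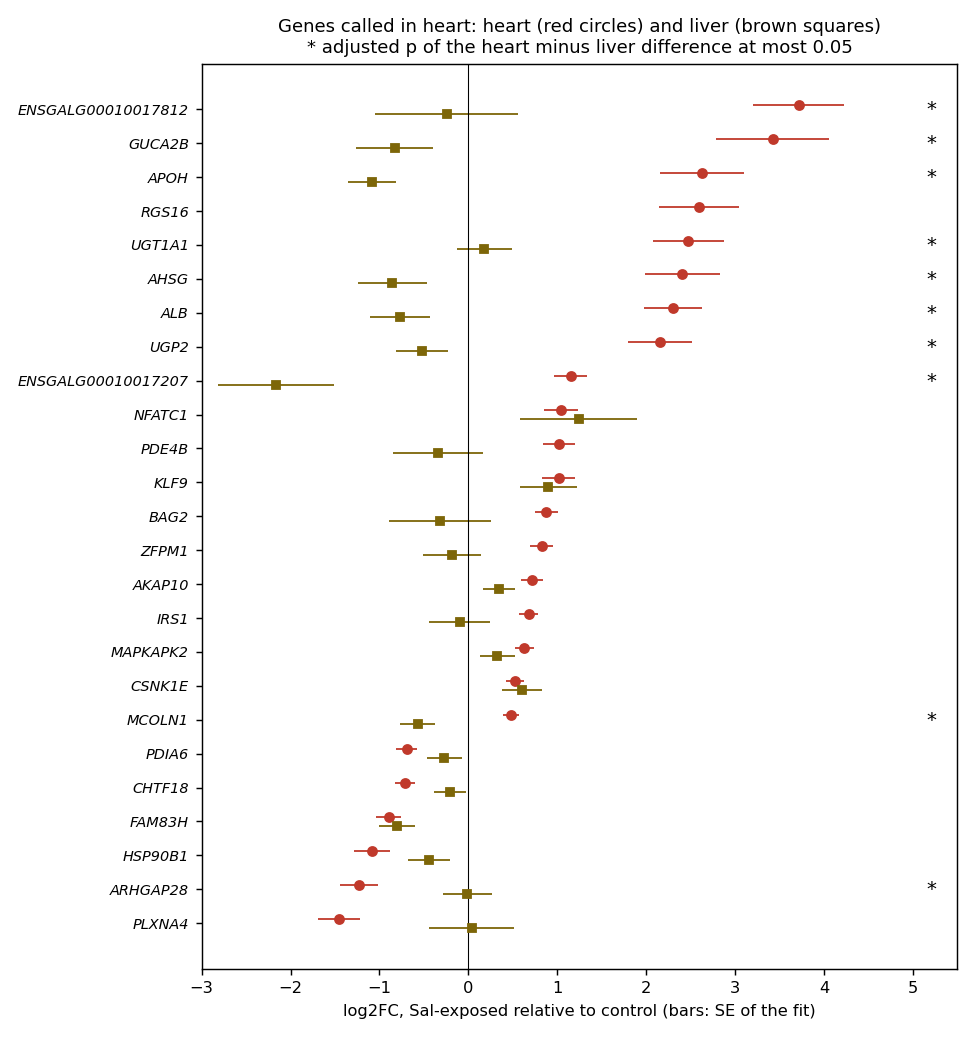
Log2FC (with SE of the fit as bars) of the 25 called genes in heart (red circles) and of the 24 of them tested in liver (brown squares), with a star where the heart minus liver difference had an adjusted p of at most 0.05. Stars mark 10 genes, among them *ALB* and *APOH*, whose heart values lie above 2 and whose liver values lie below 0.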

How the data were processed

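Birds were killed in week 5, and RNA from 12 hearts and 12 livers was sequenced as mRNA libraries. The authors trimmed the reads, aligned them with STAR to GRCg7b and deposited 1 table of gene counts (unit: counts, not normalised), summarised with RSEM; versions were not given in the sources used here. Deposited annotation columns (other: position, name and biotype) supplied gene names. Fold changes and p-values of the authors' own comparisons, deposited beside them, were not used, nor were 12 columns of the count table that match no sample. Members and gene lists were chosen with earlier results of these data known.

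Genes were kept by filterByExpr (minimum count 10, minimum total 15; 13526 of 15051), scaled by TMM and tested with edgeR 4.0.16 (quasi-likelihood, R 4.3.3, Benjamini-Hochberg over all genes) on the 12 hearts with group as the only term. Calls needed an adjusted p of at most 0.05. DESeq2 1.42.0, sva 3.50.0 and other scalings, filters and sets of libraries were alternatives. Heart and liver were compared by an interaction term over 24 libraries. Named genes were those called, those the study names for chicken heart, the 10 highest and 10 lowest log2FC without overlap at a mean of at least 1 CPM, and the leading members of each list; other names are said to have been chosen after their values were seen. No 2 hearts agreed within sampling noise. Exposed and control hearts with the same number did not deviate together; hearts and livers of the same treatment and number correlated at −0.06 to 0.47 in their deviations from the group means, over 0.1 in 6 of 12 birds. Scripts were tested on simulated data. No sequence is printed.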

Additional observations from a re-analysis of the deposited data

Results flagged for a closer look

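In 18 of 154 groups of 6 hearts (73 genes and the measures of the libraries), the highest or lowest heart lay apart from the others. Its gap to the next heart was above 0.625 of the group's range. For independent, normally distributed values chance gives about 1 in 20 groups. The CPM were not logged and several genes share 1 outlying heart, so the 2 shares are not comparable. Sal-exposed heart 1 held 5 of these, all at the high end and all but *UGP2* expressed in gut epithelium or unnamed: *ENSGALG00010017812* (gap 0.881 of the range), *MUC2* (0.879), *FABP6* (0.844), *GUCA2B* (0.787) and *UGP2* (0.778). Sal-exposed heart 3 held the high end of the plasma protein genes *ALB* (0.747), *APOH* (0.747) and *AHSG* (0.731) and the low end of the summed W-linked transcripts (0.729). Control heart 1 stood apart in 6 genes: high in *CYR61* (0.711), *PDIA4* (0.671), *HSPA5* (0.668), *HSP90B1* (0.641) and *BAG3* (0.625), and low in *TNNC1* (0.782). Control heart 2 stood apart in *AHSG* (0.705) and *MRPL19* (0.65), and control heart 3 in *FABP4* (0.777).

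The response in heart differed from that in liver for 33 of the 73 genes checked, by the edgeR interaction test, beside 16.2% of all genes. Many of the 73 were named for a low p or a large log2FC in heart, which enters this test, so the 2 shares are not comparable. Heart minus liver differences in log2FC above 0 were found for *GUCA2B* (4.21), *ENSGALG00010017812* (3.93), *APOH* (3.64), *ENSGALG00010017207* (3.21), *AHSG* (3.19), *ALB* (3.00), *FABP6* (2.79), *FGB* (2.63), *UGP2* (2.61) and *UGT1A1* (2.21). Mitochondrial and energy genes had differences of 3.66 (*ATP8*), 2.53 (*COX2*), 2.52 (*ND1*), 2.10 (*NDUFA4*), 1.55 (*NDUFA12*) and 1.46 (*PDK2*). None of these was called in heart, and the differences also hold the change in liver. The mitochondrial share of counts was 5.21% to 26.5% in control livers (median 20.1%) and 6.92% to 30.4% in Sal-exposed livers (median 8.15%). Smaller positive differences or those of muscle genes were 3.20 for *TNNC1*, 1.52 for *KCNN1*, 1.18 for *BAG3*, 1.15 for *EIF2B3*, 1.13 for *SEMA3F*, 1.00 for *MCOLN1*, 0.71 for *MRPL19* and 0.59 for *ATG3*. Differences below 0 were −3.48 for *CACNG4*, −1.88 for *PNPLA3*, −1.59 for *HSP90AA1*, −1.48 for *PROM1*, −1.30 for *ARHGAP28*, −1.18 for *EGLN3*, −1.17 for *SLC12A7*, −1.04 for *ATP2A3* and −0.87 for *GBE1*. *TNNC1* fell in liver (log2FC −2.63 ± 0.42, edgeR adjusted p = 0.00393).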

How the results depend on the processing

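The 15 genes past both thresholds became 171 with DESeq2, 28 with surrogate variables in edgeR (11 higher, 17 lower; 15 of the 25 genes called by adjusted p alone remained) and 143 with surrogate variables in DESeq2, 35 with all 24 libraries in 1 fit, 2 with the mitochondrial share as a covariate, 58 without Sal-exposed hearts 3 and 4, 9 without hearts 1, 3 and 4 of that group (added after the data were seen) and 25 with the adjusted p alone. Leaving out 1 heart gave 0 to 72. With the replicate block 0 passed, and 1889 had an unadjusted p below 0.05; correlations of same-numbered hearts were −0.19 to 0.09, so the numbers give no pairing. Upper-quartile scaling gave 10 genes, 7 higher and 3 lower, against 12 and 3. The causes of these differences were not tested. The direction of the 25 called genes was the same in all of these fits. Over all alternatives, 308 values of called genes stayed on their side of the threshold and 292 lost it, and 122 values of uncalled genes gained it. Of the list medians, 10 values moved by more than the spread between the exposed hearts, each on leaving out 1 heart. With 6 libraries a group, genes below about 1 CPM rest on few counts, and a fold there depends on single libraries.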

Other observations

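Outside the called genes, some large fold changes rested on few libraries. *MHCY15*, of a multigene family of the chicken MHC whose copies can share reads, had 30.0 CPM in Sal-exposed heart 4 and 55.3 CPM in Sal-exposed heart 5 and at most 1.56 CPM in the other 10 hearts (log2FC 6.63 ± 1.59, edgeR adjusted p = 0.0854). It had the highest log2FC of all genes tested and was chosen after its values were seen. *FABP4*, the fatty acid binding protein of fat cells, had 0.422 to 2.32 CPM in Sal-exposed hearts, and 0.370, 1.33, 1.49, 6.39, 9.76 and 42.4 CPM in the controls (log2FC −3.25 ± 0.95, edgeR adjusted p = 0.123).

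With the mitochondrial share as a covariate, the 2 genes that passed were *MAFF* and *IL17RD*, neither of which passed without it. Both were chosen after their values were seen. *MAFF*, a small Maf transcription factor, had a log2FC of 1.64 ± 0.21 with the covariate (edgeR adjusted p = 0.0153) and 0.99 without it (edgeR adjusted p = 0.191). *IL17RD*, an inhibitor of fibroblast growth factor signalling, had −3.68 ± 0.35 (edgeR adjusted p = 0.00148) and −1.42 (edgeR adjusted p = 0.27). *IL17RD* was at 0.458 to 1.42 CPM in 4 Sal-exposed hearts, at 4.49 and 11.01 CPM in hearts 1 and 4, which had the highest mitochondrial shares, and at 5.94 to 10.8 CPM in the controls.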
